A study of Mus musculus with 44 samples.

Results

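Kidneys of wild-type mice were compared between 2 opposed parts of the day, called dawn and dusk here. Dawn was the 4 RNA samples taken at zeitgeber time (ZT) 20 and ZT0, and dusk the 4 taken at ZT8 and ZT12. They were chosen by their labels alone, and are 8 of the 44 samples of the series and 8 of its 24 kidney RNA samples. The series followed polyadenylated RNA in kidney every 4 h over the day in wild-type (WT) and knockout (KO) mice, and chromatin contacts of a few sites in liver and kidney, which are not used here. The series' design text gives the mutant as Bmal -/-. Bmal1, listed as Arntl, is a core gene of the circadian clock.

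All 8 kidneys came from strain 129SV, from animals of post-natal age 8 to 12 weeks on night-restricted feeding. Each time held replicates A and B, so 2 samples at ZT20, 2 at ZT0, 2 at ZT8 and 2 at ZT12. The KO samples used for comparison were 8 kidneys of the same strain, age and feeding at the same 4 times. The labels do not say that A and B came from separate animals, so p-values measure only the spread between these samples, which may be technical. In the fits of dawn against dusk, the spread within a group also includes the difference between its 2 times. Food was given at night, so the hour and the time since feeding cannot be told apart.

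Zeitgeber time counts hours from the onset of light, so that ZT0 is lights on and ZT12 lights off by convention. In the mammalian clock, ARNTL pairs with CLOCK or NPAS2, binds E-boxes and switches on the Per and Cry genes, whose products then inhibit the pair. The REV-ERB receptors (Nr1d1, Nr1d2) repress and the ROR receptors activate Arntl through shared sites called ROREs. DBP, TEF and HLF activate genes through D-boxes, which NFIL3 represses. In kidney this clock and the daily meals set the timing of salt, water and nutrient handling.

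Values were TPM, the share of a sample's transcripts corrected for transcript length, summed over the transcripts of each gene, and were compared as log2(TPM + 0.1), where 0.1 TPM is a pseudocount. On this scale the change of a gene at low level is understated. TPM adds up to the same total in every sample, so sequencing depth is unknown, and a gene's value is a share of the RNA measured. Each of the 8 held between 12415 and 12821 genes at 1 TPM or more. Mitochondrial transcripts took 38.0% to 40.2% of TPM in the 4 dawn samples and 40.8% to 42.5% in the 4 dusk samples, without overlap. Arntl RNA lay between 0.295 and 12.9 TPM in the 8 WT samples and between 4.19 and 6.11 TPM in the 8 KO samples, and the labels do not say which part of the gene was removed.

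A gene was tested when its 8 values averaged 1 TPM or more. Of 12727 such genes, 2202 differed between dawn and dusk at an adjusted p under 0.05 (limma, two-sided, Benjamini-Hochberg over all genes tested), which is 17.3% of those tested. Of these, 1473 (11.6% of genes tested) were higher at dawn and 729 (5.73%) were higher at dusk. Most of these changes were small. The median absolute change of the 2202 genes was 0.37 log2 units, while 63 were higher at dawn and 61 higher at dusk by 1 log2 unit or more. The median over all genes tested was 0.05 log2 units. The direction of the small changes depended on the scaling: 66.9% of the called genes were higher at dawn as deposited, and 53.0% under median-of-ratios scaling (1175 of 2218), which sets the middle of the distribution near 0.

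All 4 dawn values lay above all 4 dusk values in 2126 genes (16.7% of those tested), and all 4 dusk values lay above all 4 dawn values in 1007 (7.91%). Without ZT0 replicate A the number of called genes was 1200, and without ZT0 replicate B it was 1263.

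**Figure D1:**
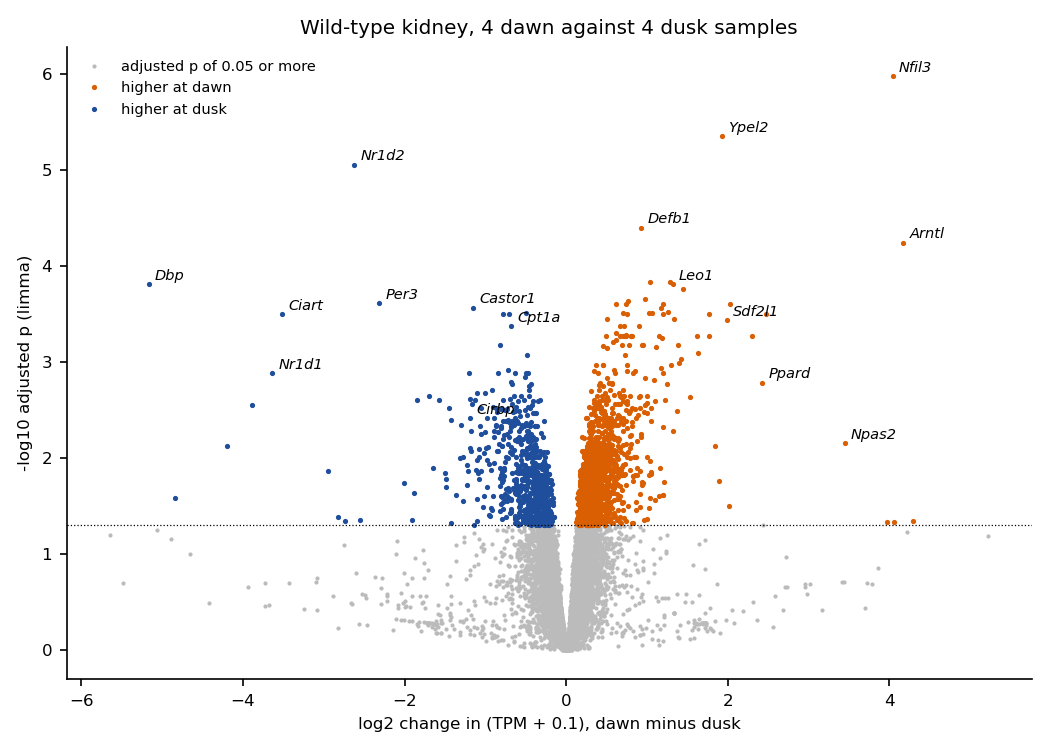
Each point is 1 of the 12727 genes tested: the x axis is the log2 change in (TPM + 0.1) from 4 dusk to 4 dawn samples, and the y axis is -log10 of limma's adjusted p. The dotted line marks an adjusted p of 0.05, 1473 orange points lie above it on the dawn side and 729 blue points on the dusk side, with Nfil3 highest (adjusted p 1.04e-06) and Arntl and Dbp far to either side.

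The 12-h opposites within the comparison were also taken alone. Between ZT0 and ZT12, 1200 genes (9.43%) differed, 966 higher at ZT0 and 234 higher at ZT12. Between ZT20 and ZT8, 669 genes (5.26%) differed, 293 higher at ZT20 and 376 higher at ZT8. The dawn excess in the first pair was smaller under median-of-ratios scaling, where 57.8% of 673 called genes were higher at ZT0, against 80.5% as deposited. The median over all genes was 0.10 log2 units for ZT0 against ZT12 and -0.01 for ZT20 against ZT8. With 1 sample left out the counts fell as low as 36 (without ZT0 replicate A) and 29 (without ZT8 replicate B, and also without ZT20 replicate B). In these fits 1 time is a lone sample, assumed to vary like the other times. The first count also fell, to between 655 and 693, without a sample of ZT8 or ZT20, times that are not in it.

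ZT4 and ZT16 were left out of the comparison. The ZT4 mean was nearer the dawn mean than the dusk mean for 36.2% of the genes higher at dawn and 43.4% of those higher at dusk, against 43.2% of all genes tested. The ZT16 mean was nearer dawn for 60.1% of the dawn-high genes and 69.0% of the dusk-high genes, against 56.3% of all genes.

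The positive arm of the clock was high at dawn. Of the 5 tested genes of this list, 4 were higher at dawn and 1 at dusk. Over all genes tested these shares were 11.6% and 5.73%, against which the counts of each list below are set. Arntl (ENSMUSG00000055116, GRCm38 chromosome 7, 113207465 to 113314126, plus strand) stood at 9.38 and 8.24 TPM in the ZT20 samples and at 12.9 and 12.4 at ZT0. In the dusk samples it stood at 0.690 and 0.527 TPM at ZT8 and at 0.295 and 0.527 at ZT12. Every dawn sample therefore exceeded every dusk sample. The group means differed by 4.17 log2 units (SE 0.23, adjusted p 5.67e-05), an 18-fold difference.

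Nfil3 (ENSMUSG00000056749, chromosome 13, 52967209 to 52981073, minus strand), the D-box repressor, had the smallest p-value of all genes. It measured 11.3 and 12.1 TPM at ZT20 and 13.8 and 14.0 at ZT0. At ZT8 it measured 0.791 and 0.634 TPM, and at ZT12 0.567 and 0.746. The groups were far apart relative to their spread: 4.04 log2 units (SE 0.12, adjusted p 1.04e-06), or 16.5-fold. Leo1 (chromosome 9, 75441524 to 75466432, plus strand), a subunit of the PAF1 complex that accompanies RNA polymerase II, ran from 6.69 to 8.49 TPM at dawn and from 2.85 to 3.18 at dusk (1.32 log2 units, SE 0.09, adjusted p 0.000154).

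Promoter windows of these 3 genes are shown because each holds a match to the RORE, and were picked with their values in view from 11 genes higher at dawn with such a match. Sequences are from RefSeq on GRCm38.p6, from 250 bases before to 50 after a start site, 5′ to 3′ on the gene's strand. The windows are chr7:113207261-113207560 (plus strand) for Arntl, chr13:52980990-52981289 (minus) for Nfil3 and chr9:75441274-75441573 (plus) for Leo1. Capitals mark the match to ANTAGGTCA, searched on both strands. It starts at base 279 in Arntl, at base 239 on the opposite strand in Nfil3 and at base 186 in Leo1, counted from the first base shown.
Arntl: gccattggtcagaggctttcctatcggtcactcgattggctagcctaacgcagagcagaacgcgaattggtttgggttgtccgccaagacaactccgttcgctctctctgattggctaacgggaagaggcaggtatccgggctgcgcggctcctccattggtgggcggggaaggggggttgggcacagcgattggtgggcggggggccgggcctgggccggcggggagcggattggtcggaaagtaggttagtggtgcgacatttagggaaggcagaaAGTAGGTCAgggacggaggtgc
Nfil3: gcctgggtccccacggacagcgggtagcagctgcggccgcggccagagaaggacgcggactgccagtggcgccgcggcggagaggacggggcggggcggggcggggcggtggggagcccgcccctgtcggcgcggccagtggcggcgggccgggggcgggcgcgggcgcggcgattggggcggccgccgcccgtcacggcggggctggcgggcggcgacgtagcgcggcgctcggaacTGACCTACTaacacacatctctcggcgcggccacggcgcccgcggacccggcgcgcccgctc
Leo1: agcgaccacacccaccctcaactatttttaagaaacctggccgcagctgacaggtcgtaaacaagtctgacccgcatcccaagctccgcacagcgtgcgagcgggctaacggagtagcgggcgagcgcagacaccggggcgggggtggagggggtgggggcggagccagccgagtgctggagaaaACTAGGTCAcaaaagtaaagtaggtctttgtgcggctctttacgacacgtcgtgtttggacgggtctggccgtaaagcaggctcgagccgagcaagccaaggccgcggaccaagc
Of 27025 genes with a window, 0.707% held such a match, and of the 9502 tested genes with a window 0.526% did. It was found in 0.956% of genes higher at dawn and 0.880% of genes higher at dusk. A match describes letters and shows no binding.

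The positive-arm genes other than Arntl had smaller or less even changes. Npas2, which can replace CLOCK, ran from 4.71 to 8.14 TPM at dawn and from 0.143 to 1.44 at dusk (3.45 log2 units, SE 0.53, adjusted p 0.00688). Its lowest values were at ZT12. Clock ran from 6.65 to 8.66 TPM at dawn and from 4.12 to 4.98 at dusk (0.76, SE 0.10, adjusted p 0.00255).

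Rora, a receptor that activates Arntl, was the list's dusk-high member, with 5.08 to 6.10 TPM at dawn and 6.43 to 7.69 at dusk (-0.37, SE 0.08, adjusted p 0.0201). Its call was lost without ZT0 replicate A (adjusted p 0.0592) and without ZT0 replicate B (0.0566). Rorb, at 0.0788 TPM or less in each of the 8 samples, did not pass the filter.

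Of 10 clock repressors, 5 were higher at dusk, 1 was higher at dawn and 4 did not pass. Nr1d1 (chromosome 11, 98767932 to 98775333, minus strand) was at 1.42 and 1.93 TPM at ZT20, 2.91 and 3.28 at ZT0, 44.3 and 38.4 at ZT8, and 20.6 and 21.3 at ZT12. It fell by 3.64 log2 units from dusk to dawn (SE 0.35, adjusted p 0.00129), with the highest values at ZT8. Nr1d2, its paralog, ran from 4.32 to 5.93 TPM at dawn and from 28.4 to 34.3 at dusk (-2.62, SE 0.11, adjusted p 8.72e-06). Both receptors were separated without overlap.

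Ciart (chromosome 3, 95878503 to 95882251, minus strand), an inhibitor of the CLOCK and ARNTL pair, ran from 0.658 to 1.52 TPM at dawn. At dusk it was at 10.9 and 12.1 TPM at ZT8 and at 20.3 and 11.8 at ZT12 (-3.51 log2 units, SE 0.27, adjusted p 0.000314). Per3 (chromosome 4, 151003652 to 151044665, minus strand) ran from 1.41 to 2.56 TPM at dawn and from 8.74 to 11.0 at dusk (-2.32, SE 0.17, adjusted p 0.000244). Bhlhe41, a repressor that binds E-boxes, ran from 0.338 to 0.646 TPM at dawn and from 1.47 to 2.02 at dusk (-1.70, SE 0.21, adjusted p 0.00222).

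The windows of Ciart (chr3:95882179-95882478, minus strand) and Per3 (chr4:151044616-151044915, minus strand) are shown for their repeated elements, from the same source. Ciart holds 3 E-boxes (CACGTG, bases 135, 193 and 207) and Per3 holds 2 D-boxes (TTATGTAA, bases 46 and 93).
Ciart: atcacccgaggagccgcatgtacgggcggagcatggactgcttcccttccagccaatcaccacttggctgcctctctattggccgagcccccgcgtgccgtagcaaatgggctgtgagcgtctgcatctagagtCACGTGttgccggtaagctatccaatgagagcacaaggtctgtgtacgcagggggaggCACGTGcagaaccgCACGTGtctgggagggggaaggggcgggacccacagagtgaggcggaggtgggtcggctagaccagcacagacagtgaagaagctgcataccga
Per3: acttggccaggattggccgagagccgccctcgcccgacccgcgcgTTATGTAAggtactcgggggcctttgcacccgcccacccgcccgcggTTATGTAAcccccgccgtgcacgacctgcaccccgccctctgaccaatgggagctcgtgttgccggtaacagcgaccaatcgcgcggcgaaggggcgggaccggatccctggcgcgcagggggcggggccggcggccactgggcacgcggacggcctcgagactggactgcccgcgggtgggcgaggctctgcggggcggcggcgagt
Both strands were searched. Of all genes with a window 8.09% held CACGTG, and so did 11.8% of tested genes, 12.9% of genes higher at dawn and 15.1% of genes higher at dusk. Among the 16 clock genes with a window, 5 held it: Per1, Cry1, Bhlhe41, Ciart and Tef. The D-box TTATGTAA was in 1.11% of all windows' genes and in 1 of the 16 clock genes, Per3.

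Cry1 was the only repressor of the list that was higher at dawn, and its 4 times differed widely. It was at 6.61 and 6.64 TPM at ZT20, 5.43 and 5.39 at ZT0, 0.551 and 0.930 at ZT8, and 3.29 and 2.17 at ZT12. The change was 2.01 log2 units (SE 0.49, adjusted p 0.0313). The call was lost when any 1 of 5 samples was left out (adjusted p 0.068 to 0.0742): ZT0 A, ZT0 B, ZT20 A, ZT20 B or ZT8 B.

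The other 4 repressors did not pass the test, 3 of them with overlapping values. Per1 was at 7.33 and 6.20 TPM at ZT20, 1.87 and 2.52 at ZT0, 6.85 and 7.56 at ZT8, and 15.7 and 7.55 at ZT12 (-1.18 log2 units, SE 0.50, adjusted p 0.145). Of its ZT20 values, 7.33 TPM lay within the dusk range and 6.20 TPM lay below it. With 1 mean per time Per1 passed (adjusted p 0.0228). Per2 ran from 13.3 to 18.1 TPM at dawn and from 11.0 to 29.1 at dusk (adjusted p 0.426), and passed without ZT8 replicate A (0.0389). Cry2 ran from 3.22 to 6.11 TPM at dawn and from 6.21 to 7.95 at dusk, without overlap (adjusted p 0.066), and passed with 1 mean per time (0.00549) and without ZT20 replicate B (0.038). Bhlhe40 ran from 22.3 to 29.4 TPM at dawn and from 28.0 to 32.7 at dusk (adjusted p 0.0978), and passed without ZT0 replicate B (0.0474).

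Of the D-box activators, Dbp and Tef were higher at dusk. Dbp (chromosome 7, 45705088 to 45710203, plus strand) was at 2.26 and 2.36 TPM at ZT20, 1.17 and 0.989 at ZT0, 56.1 and 65.2 at ZT8, and 71.2 and 51.4 at ZT12. Its difference was -5.17 log2 units (SE 0.28, adjusted p 0.000154), 36.0-fold higher at dusk. Tef ran from 53.0 to 94.8 TPM at dawn and from 170 to 228 at dusk (-1.58, SE 0.18, adjusted p 0.00247). Hlf overlapped, with 33.5 to 49.2 TPM at dawn and 44.1 to 64.7 at dusk (adjusted p 0.0716), and passed without ZT20 replicate A (0.0271). Nfil3, which shares their sites, had the opposite direction.

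**Figure D2:**
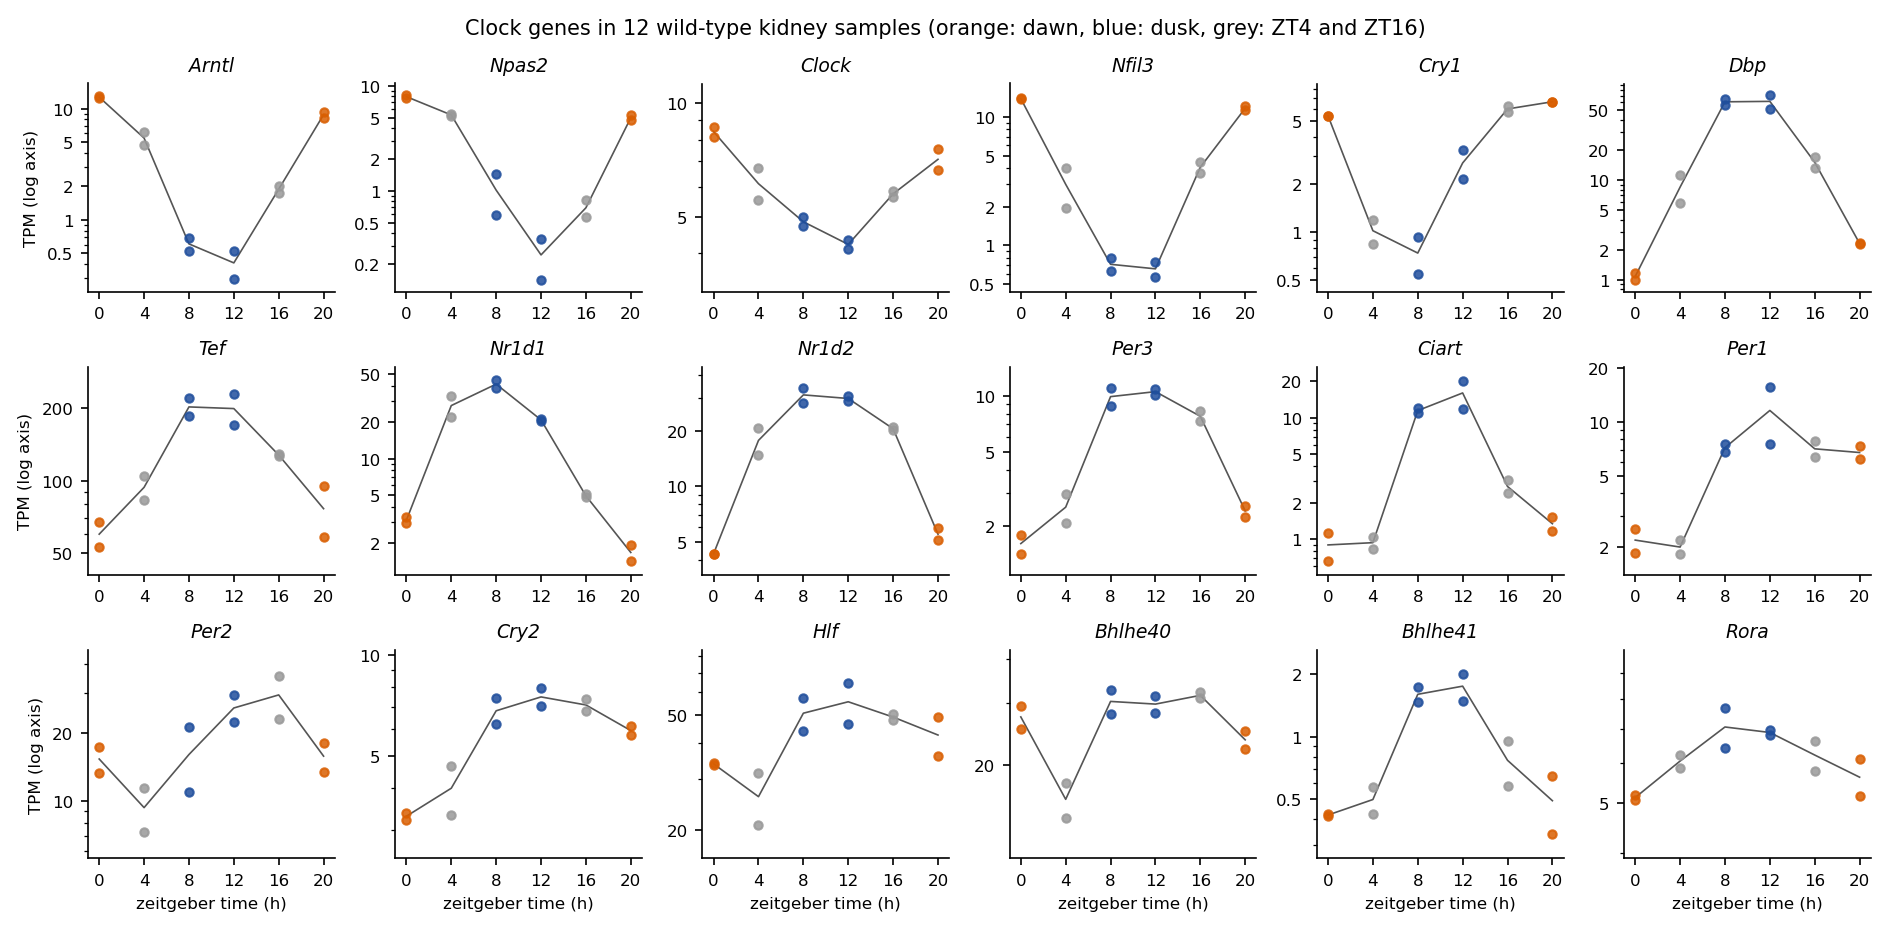
TPM of 18 clock genes (log y axis, 1 panel each) against zeitgeber time in hours in 12 WT samples, 2 per time, with a line through the means. Arntl, Npas2, Clock, Nfil3 and Cry1 lie high in the orange dawn samples, Dbp, Tef, Nr1d1, Nr1d2, Per3, Ciart, Bhlhe41 and Rora lie high in the blue dusk samples, Per1, Per2, Hlf and Bhlhe40 overlap, and Cry2 does not overlap (adjusted p 0.066).

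Outside the clock lists, the dawn-high genes with the smallest p-values were led by Ypel2, a member of a family of small zinc-binding proteins. Ypel2 (chromosome 11, 86936425 to 86993707, minus strand) was at 9.29, 9.40, 9.62 and 9.18 TPM at dawn and at 2.26, 2.48, 2.24 and 2.63 at dusk. The spread within each group was small against the gap of 1.92 log2 units (SE 0.07, adjusted p 4.45e-06). Defb1, which encodes an antimicrobial defensin of tubule epithelium, ran from 280 to 297 TPM at dawn and from 139 to 159 at dusk (0.92, SE 0.05, adjusted p 3.96e-05). Npnt, an extracellular matrix protein, ran from 40.8 to 47.0 TPM at dawn and from 19.8 to 22.8 at dusk (1.04, adjusted p 0.000144). P4ha1, a collagen prolyl hydroxylase subunit, was higher at dawn by 0.97 (adjusted p 0.000218) and Rtl6, a gene derived from a retrotransposon, by 1.20 (adjusted p 0.000248).

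Hist2h3c2, a histone H3 gene, was at 3.50 to 5.58 TPM at dawn and 0.952 to 1.21 at dusk (2.03 log2 units, adjusted p 0.000248). Its near-identical copies leave its share of reads uncertain. Tubulins Tubb2a (1.29, adjusted p 0.000144) and Tubb4b (0.76, adjusted p 0.000229) were also among these genes.

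Among genes averaging 5 TPM or more the largest dawn-high change outside the clock was that of Ppard, a nuclear receptor for fatty acids. It stood at 25.7 and 18.3 TPM at ZT20 and 41.1 and 37.0 at ZT0, and at 6.51, 5.58, 4.94 and 4.51 in the dusk samples (2.43 log2 units, SE 0.25, adjusted p 0.00163). Cish, an inhibitor of cytokine receptor signalling, was at 21.4 to 36.1 TPM at dawn and 5.29 to 16.8 at dusk (1.89, SE 0.38, adjusted p 0.0173). Its highest dusk sample, ZT8 replicate A, lay below its lowest dawn sample, and the call was lost without ZT0 replicate A (adjusted p 0.0506). Gm29397, annotated as a processed pseudogene, was higher at dawn by 1.84 (adjusted p 0.0075), and reads shared with its parent gene cannot be separated here.

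Outside the clock lists, the smallest dusk-high p-value was that of Castor1. Castor1, the arginine sensor of the mTORC1 pathway (chromosome 11, 4218225 to 4222409, plus strand), was at 3.63, 4.09, 3.30 and 3.80 TPM at dawn and at 8.33, 8.99, 8.57 and 7.45 at dusk (-1.15 log2 units, SE 0.09, adjusted p 0.000269). Eif4b, a translation initiation factor, ran from 49.5 to 51.9 TPM at dawn and from 70.8 to 73.8 at dusk (-0.49, SE 0.04, adjusted p 0.000304). Asl, a urea cycle and arginine synthesis enzyme, ran from 117 to 134 TPM at dawn and from 171 to 184 at dusk (-0.48, adjusted p 0.000834). Aspa, which cleaves N-acetylaspartate, ran from 59.7 to 66.1 TPM at dawn and from 97.4 to 112 at dusk (-0.71, adjusted p 0.000314).

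Cpt1a, which admits long-chain fatty acids to mitochondria (chromosome 19, 3322334 to 3385733, plus strand), was at 77.2, 73.6, 72.5 and 73.2 TPM at dawn and at 123, 129, 118 and 107 at dusk (-0.68 log2 units, SE 0.06, adjusted p 0.000419). Pnpla2, the adipose triglyceride lipase, ran from 36.9 to 40.7 TPM at dawn and from 53.9 to 67.7 at dusk (-0.72, adjusted p 0.00119). Acsm5, a medium-chain acyl-CoA synthetase, ran from 25.2 to 29.6 TPM at dawn and from 45.9 to 49.3 at dusk (-0.78, adjusted p 0.000314). Slc27a2, a fatty acid transport protein, ran from 1267 to 1441 TPM at dawn and from 1801 to 2004 at dusk (-0.47, adjusted p 0.00129), and Pnpla1 fell by 0.82 log2 units from dusk to dawn (adjusted p 0.000655).

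The adipocyte markers Adipoq and Plin1 were low in the 4 dawn samples and in 1 dusk sample. Adipoq lay between 0.0169 and 0.170 TPM in the 4 dawn samples and at 0.193 in ZT8 replicate A, but at 2.20 in ZT8 replicate B and at 1.61 and 1.79 at ZT12. Plin1 was at or below 0.0849 TPM in those 5 samples and between 1.24 and 1.65 in the other 3. At ZT4 and ZT16, outside the comparison, Adipoq lay between 1.225 and 4.097 TPM and Plin1 between 0.704 and 1.573, so higher values were not particular to dusk. The summed level of the 3 markers was 34.7 to 47.2 TPM at dawn and 37.9 to 84.7 at dusk, and none was at 0 in all 8 samples. Nearly all of this sum was Fabp4, at 34.7 to 47.2 TPM at dawn and 37.6 to 81.4 at dusk, so it says little of Adipoq and Plin1. In ZT8 replicate A Cpt1a stood at 123 and Pnpla2 at 67.7 TPM, against 107 to 129 and 53.9 to 67.7 over the 4 dusk samples. Dgat2, a triglyceride synthesis enzyme, stood there at 69.4 TPM, within its dusk range of 66.6 to 81.0 and above its dawn range of 45.0 to 51.0 (-0.56 log2 units, adjusted p 0.00222). Thrsp, a lipogenic gene, instead stood at 1.76 TPM in that sample, near its dawn values of 1.53 to 2.67, and at 8.81 to 14.2 in the other dusk samples (-1.78, SE 0.61, adjusted p 0.0891). The part of the adipocyte markers in the values of these genes was not tested.

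**Figure D3:**
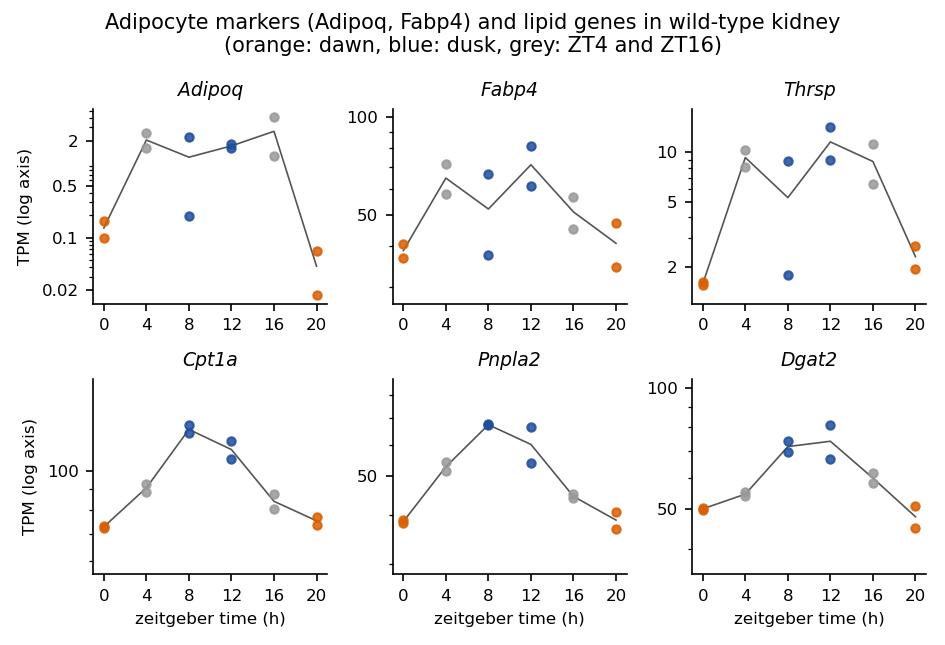
TPM (log y axis) against zeitgeber time in hours for adipocyte markers Adipoq and Fabp4 and for lipid genes Thrsp, Cpt1a, Pnpla2 and Dgat2 in 12 WT samples. Of the blue dusk points, ZT8 replicate A is low for Adipoq (0.193 TPM) and Thrsp (1.76 TPM) but not for Cpt1a (123 TPM) or Pnpla2 (67.7 TPM).

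Other dusk-high genes with large changes were Depp1, a FoxO target linked to autophagy, and Mt2, a metallothionein. Depp1 was at 1.17 to 2.62 TPM at dawn, 11.0 and 14.2 at ZT8, and 5.51 and 4.34 at ZT12 (-2.0 log2 units, SE 0.41, adjusted p 0.0179), and its call was lost without ZT0 replicate A (adjusted p 0.0503). Mcm10, a DNA replication factor, ran from 1.25 to 1.71 TPM at dawn and from 3.01 to 4.07 at dusk (-1.21, adjusted p 0.00129). Alms1-ps2, annotated as a pseudogene, had a difference of -1.65 (adjusted p 0.0127). Gm10974 had one of -1.42 (adjusted p 0.0468), which was lost in each of 7 of the 8 fits that left 1 sample out (adjusted p 0.0563 to 0.11), that without ZT0 replicate A being the exception.

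Chaperones of the endoplasmic reticulum (ER), which fold secreted and membrane proteins, were higher at dawn in 15 of 18 members, and 0 were higher at dusk. The median of the list was 0.63 log2 units. Hspa5, the BiP chaperone (chromosome 2, 34771970 to 34777547, plus strand), was at 240, 254, 286 and 203 TPM at dawn and at 94.9, 99.0, 104 and 110 at dusk (1.26 log2 units, SE 0.10, adjusted p 0.000301). Sdf2l1, a partner of BiP, had the largest change of the list, from 15.8 to 20.3 TPM at dawn and 3.48 to 5.97 at dusk (1.99, SE 0.17, adjusted p 0.000363). Neither overlapped between the groups.

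Calr, a lectin chaperone (chromosome 8, 84841850 to 84846934, minus strand), ran from 398 to 446 TPM at dawn and from 215 to 268 at dusk (0.81, SE 0.08, adjusted p 0.000538), and Manf, a secreted ER protein, from 84.4 to 126 and from 45.4 to 46.9 (1.15, SE 0.11, adjusted p 0.000538). Hsp90b1 (0.95), Hyou1 (0.98), Pdia6 (0.81), Creld2 (1.0) and Xbp1 (0.64), the transcription factor of the ER stress response, passed too. Herpud1 (-0.42, adjusted p 0.0552), Ddit3 (0.13) and Dnajb9 (-0.07) did not. Herpud1 did not overlap between the groups, and was called higher at dusk under the 5 TPM filter, with the replicate block and with the 12 WT samples taken as 1 mean per time. The dawn count remained 15 in each of the 8 fits that left 1 sample out.

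Windows of Hspa5 (chr2:34771840-34772139, plus strand) and Calr (chr8:84846882-84847181, minus strand) are shown because both hold the ER stress element, CCAAT and CCACG 9 bases apart, in capitals here. It starts at base 186 in Hspa5 and, on the opposite strand, at base 89 in Calr, where capitals also mark an E-box at base 27.
Hspa5: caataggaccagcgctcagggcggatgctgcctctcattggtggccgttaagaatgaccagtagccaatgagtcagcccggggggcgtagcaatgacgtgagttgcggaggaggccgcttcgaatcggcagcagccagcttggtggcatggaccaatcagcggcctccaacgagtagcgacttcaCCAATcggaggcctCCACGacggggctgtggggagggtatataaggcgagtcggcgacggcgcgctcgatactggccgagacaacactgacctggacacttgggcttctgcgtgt
Calr: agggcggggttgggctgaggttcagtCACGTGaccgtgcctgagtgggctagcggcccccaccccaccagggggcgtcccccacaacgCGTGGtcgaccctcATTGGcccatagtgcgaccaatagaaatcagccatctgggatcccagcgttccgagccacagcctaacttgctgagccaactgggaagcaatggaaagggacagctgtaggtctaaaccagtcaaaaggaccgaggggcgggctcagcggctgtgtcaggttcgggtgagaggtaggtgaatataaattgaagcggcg
Of 16 ER chaperone genes with a window, 7 held the element (Calr, Canx, Hspa5, Hsp90b1, Pdia6, Dnajc3 and Creld2), against 0.137% of all genes with a window and 0.189% of tested genes. It was in 9 of the 1151 genes higher at dawn that had a window, these 7 among them, and in 0 of 568 higher at dusk. With 0.189% of tested genes holding it, its absence among 568 genes says little.

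The heat shock list holds cytosolic chaperones, their regulator Hsf1 and the mitochondrial chaperonins Hspd1 and Hspe1. Of 17 members, 11 were higher at dawn and 0 at dusk, with a median of 0.58 log2 units. Hsp90aa1, a stress-inducible HSP90, was at 335, 476, 421 and 389 TPM at dawn and at 190, 194, 167 and 158 at dusk (1.19, SE 0.11, adjusted p 0.000562). Its partner Hsp90ab1 ran from 397 to 470 TPM at dawn and from 262 to 309 at dusk (0.57, adjusted p 0.00168). Stip1, which links HSP70 to HSP90, differed by 0.76 (adjusted p 0.00107) and Hspa4l, an HSP110 protein, by 0.86 (adjusted p 0.00124). The mitochondrial Hspe1 differed by 0.44 (adjusted p 0.00247) and Hspd1 by 0.25 (adjusted p 0.0324, lost in 7 of 8 fits with 1 sample left out). The heat shock element GAANNTTC, searched on both strands, was in 9 of 13 genes of the list with a window, against 9.04% of all genes with a window and 7.09% of tested genes. It was in 6.60% of genes higher at dawn and 7.92% of genes higher at dusk. The 6 genes that did not pass included Hspa8 (0.27, adjusted p 0.603), which ran from 999 to 2579 TPM at dawn, and Hspa1a and Hspa1b, whose near-identical sequences leave their division uncertain. The count ran from 7 (without ZT0 replicate B) to 12 when 1 sample was left out.

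Both cold-induced RNA-binding proteins moved the other way. Cirbp was at 27.2 and 30.5 TPM at ZT20, 18.8 and 22.3 at ZT0, 66.8 and 58.6 at ZT8, and 50.8 and 47.6 at ZT12 (-1.19 log2 units, SE 0.16, adjusted p 0.00381). Rbm3 ran from 44.6 to 59.1 TPM at dawn and from 76.7 to 90.7 at dusk (-0.70, SE 0.09, adjusted p 0.00244). In each the dusk values were all above the dawn values.

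Sterol synthesis was higher at dawn along most of the pathway. Of 23 members, 18 passed in that direction and 0 at dusk, with a median of 0.48 log2 units. Msmo1, a sterol methyl oxidase (chromosome 8, 64718139 to 64733792, minus strand), was at 40.8, 53.7, 41.0 and 48.3 TPM at dawn and at 18, 16.1, 17.4 and 15.2 at dusk (1.45, SE 0.10, adjusted p 0.000174). Mvd, mevalonate decarboxylase, ran from 32.4 to 33.9 TPM at dawn and from 20.6 to 22.3 at dusk (0.62, adjusted p 0.000248). Lss, lanosterol synthase, ran from 18.5 to 21.5 TPM at dawn and from 7.59 to 10.1 at dusk (1.17, adjusted p 0.000271).

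Fdps, farnesyl diphosphate synthase, ran from 25.1 to 36.1 TPM at dawn and from 10.7 to 13.4 at dusk (1.29, adjusted p 0.00106). Srebf2, the transcription factor of the pathway, differed by 0.43 (adjusted p 0.0262), a call lost in 5 of 8 fits with 1 sample left out (up to 0.0691). Sc5d (-0.27), Tm7sf2 (0.28), Ebp (0.13) and Mvk (0.15) were among those that did not pass. Under median-of-ratios scaling 17 were higher at dawn and 1, Sc5d, at dusk. With 1 sample left out, 13 to 16 passed. The sterol element TCACNCCAC, searched on both strands, was in 1 of 16 genes of the list with a window, Hmgcs1, against 1.44% of all genes with a window, 1.82% of genes higher at dawn and 0.880% of genes higher at dusk.

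Of 12 fatty acid synthesis genes, 4 were higher at dawn and 0 at dusk, and the list's median was 0.11 log2 units. Srebf1, the regulator of the pathway, was at 39.2, 40.4, 28.4 and 37.7 TPM at dawn and at 14.3, 15.5, 14.5 and 12.8 at dusk (1.33, SE 0.11, adjusted p 0.000355). Scd2, a desaturase, ran from 28.4 to 35.6 TPM at dawn and from 12.8 to 16.6 at dusk (1.20, adjusted p 0.000314). Fads1 differed by 0.64 (adjusted p 0.00738) and the elongase Elovl5 by 0.33 (adjusted p 0.0112). Another elongase, Elovl6 (0.13, adjusted p 0.543), and the desaturases Scd1 (-0.32, adjusted p 0.109) and Fads2 (0.21, adjusted p 0.187) did not pass. Fasn, which ran from 28.4 to 39.4 TPM at dawn and from 18.1 to 55.1 at dusk, did not pass (adjusted p 0.935). Its lowest value was in ZT8 replicate A, the dusk sample with low adipocyte markers, whose part in its values was not tested.

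**Figure D4:**
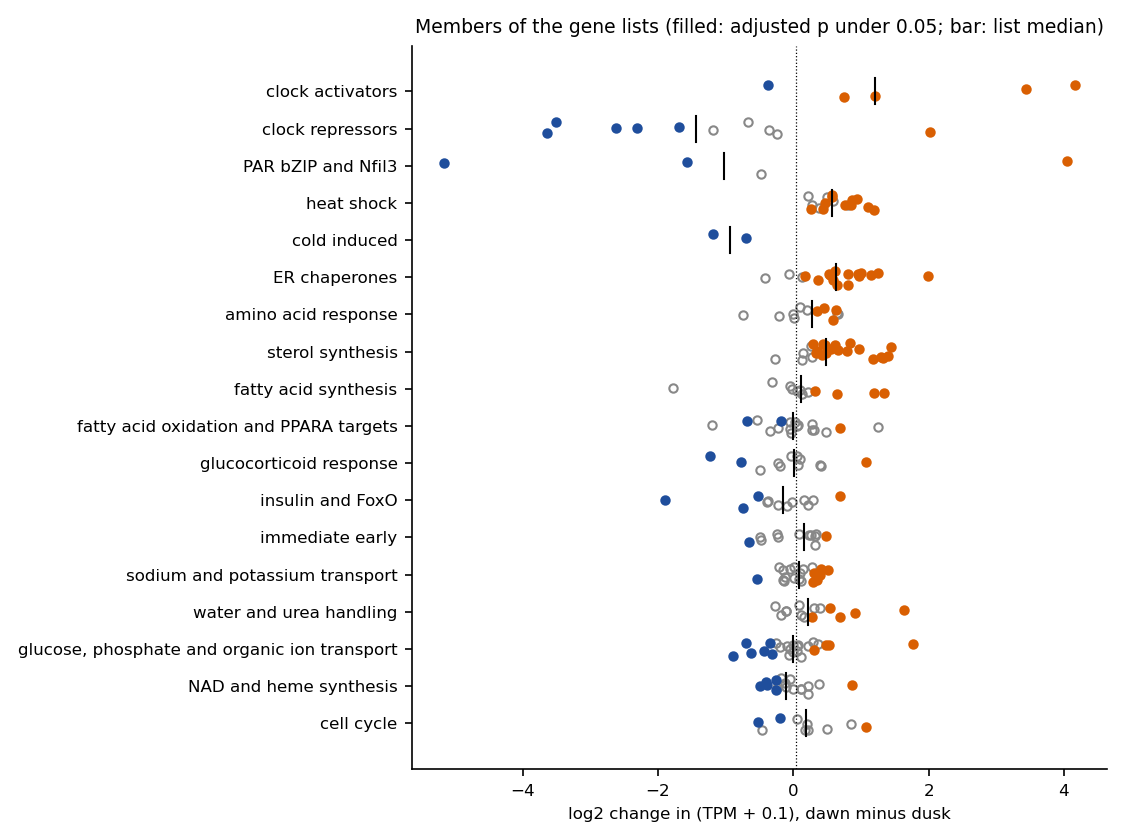
The x axis is the log2 change in (TPM + 0.1), dawn minus dusk, and each point is a tested member of 1 of 18 gene lists (filled orange: higher at dawn; filled blue: higher at dusk; open: not passed). Black bars are list medians and the dotted line is the median of all genes, 0.05; ER chaperones (15 of 18), sterol synthesis (18 of 23) and heat shock (11 of 17) lie mostly to the right.

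The fatty acid oxidation and PPARA list had no common direction. Of 18 members, 2 were higher at dusk (Cpt1a and Cpt2), 1 was higher at dawn (Acot1) and 15 did not pass, with a median of -0.0046 log2 units. The shares over all genes tested were 5.73% at dusk and 11.6% at dawn. Cpt2 had a difference of -0.18 (adjusted p 0.0407) and Acot1, a thioesterase with a close paralog, one of 0.69 (adjusted p 0.0292). Both calls were lost in several fits with 1 sample left out, in 7 of 8 for Cpt2 (adjusted p up to 0.1) and in 4 of 8 for Acot1 (up to 0.0749). The dusk count rose to 5 without ZT12 replicate B and 3 without ZT20 replicate B, and was 1 in the other 6 fits. Pdk4, a fasting-induced kinase, ran from 5.44 to 17.6 TPM at dawn and from 5.03 to 7.29 at dusk (0.27, adjusted p 0.653), and Vnn1 missed the threshold (-0.35, adjusted p 0.0589).

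Among 12 tested insulin and FoxO genes, 3 were higher at dusk (5.73% over all genes) and 1 at dawn (11.6%). The dusk count was 1 without ZT0 A, ZT0 B or ZT20 A. Klf15, a regulator of amino acid breakdown, ran from 25.7 to 29.2 TPM at dawn and from 34.9 to 41.3 at dusk (-0.52 log2 units, adjusted p 0.00245). Txnip, a glucose-responsive arrestin, ran from 87.8 to 111 and from 113 to 194 (-0.74, adjusted p 0.0207), a call lost without ZT0 A, ZT0 B or ZT20 A (adjusted p up to 0.0597). Igfbp1 overlapped between groups, with 1.07 to 2.28 TPM at dawn and 2.17 to 11.3 at dusk (-1.90, adjusted p 0.044), and was lost in 7 of the 8 fits that left 1 sample out (up to 0.115). G6pc, the last enzyme of glucose production, was higher at dawn, with 210 to 274 TPM against 114 to 179 (0.70, adjusted p 0.0149).

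Of 12 tested glucocorticoid-responsive genes, 1 was higher at dawn (11.6% over all genes), Cdkn1a (1.07 log2 units, adjusted p 0.000304). The 2 higher at dusk (5.73% over all genes) were Mt2 and Mt1. Mt2 was at 23.7, 36.0, 38.4 and 23.7 TPM at dawn and at 85, 81.4, 65.5 and 51.8 at dusk (-1.23, SE 0.22, adjusted p 0.0116), and the neighbouring Mt1 differed by -0.77 (adjusted p 0.0126). Dusp1 ran from 10.8 to 19.8 TPM at dawn and from 13.9 to 32.3 at dusk and did not pass (adjusted p 0.277). Tsc22d3, a direct target of the hormone, was at 38.3 and 37.8 TPM at ZT20 and 11.7 and 17.4 at ZT8, but at 21.7 and 26.1 at ZT0 and 49.2 and 26.8 at ZT12. So the 2 opposed pairs of times differed in sign for it, and its overall change was 0.40 (adjusted p 0.576).

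In the amino acid response list 4 of 12 tested members were higher at dawn and 0 at dusk, against 11.6% and 5.73% of all genes tested. The dawn count was 2 without ZT0 replicate B. Slc3a2, the shared chain of amino acid exchangers, differed by 0.45 log2 units (adjusted p 0.00886), the serine synthesis enzyme Psat1 by 0.63 (adjusted p 0.014), mitochondrial Mthfd2 by 0.59 (adjusted p 0.0194) and Atf4, the transcription factor of the response, by 0.35 (adjusted p 0.0318). The Atf4 call was lost in 5 of 8 fits with 1 sample left out (up to 0.0822), and that of Mthfd2 in 2 (up to 0.0591). Asns, asparagine synthetase, changed by 0.02 (adjusted p 0.973).

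Immediate early genes gave 1 call in each direction among 12 tested, near the shares over all genes tested (11.6% at dawn and 5.73% at dusk). The dawn count was 3 without ZT12 replicate A, and the dusk count 2 without ZT20 replicate A. Junb ran from 4.09 to 4.86 TPM at dawn and from 6.10 to 7.69 at dusk (-0.65 log2 units, adjusted p 0.00413), and Myc from 2.64 to 3.53 and from 2.06 to 2.30 (0.48, adjusted p 0.0193), the latter lost without ZT0 replicate A (0.0576). Klf2 (0.32, adjusted p 0.0562) and Jun (0.33, adjusted p 0.0631) did not pass. Cell cycle genes gave 1 of 10 higher at dawn, Cdkn1a, a cell cycle inhibitor at 4.46 to 5.13 TPM at dawn and 2.05 to 2.36 at dusk. The 2 higher at dusk were Ccnd1 (-0.53, adjusted p 0.0133) and Cdkn1b (-0.20, adjusted p 0.0475), the latter lost in each of the 8 fits that left 1 sample out (adjusted p 0.0512 to 0.121).

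Genes of renal water and urea handling were higher at dawn in 5 of 14 members and at dusk in 0 (11.6% and 5.73% over all genes). The dawn count was 3 without ZT0 B, ZT20 A or ZT8 A and 6 without ZT20 B. Avpr1a was at 4.60, 4.57, 5.25 and 5.02 TPM at dawn and at 1.57, 2.12, 1.23 and 1.20 at dusk (1.64 log2 units, SE 0.17, adjusted p 0.000801). Avpr2, the receptor for urine concentration, ran from 11.6 to 13.9 TPM at dawn and from 5.85 to 8.39 at dusk (0.91, SE 0.11, adjusted p 0.00222). Slc5a3, a myo-inositol carrier, differed by 0.55 (adjusted p 0.00714), the urea transporter Slc14a2 by 0.69 (adjusted p 0.0215, lost in 3 of 8 fits with 1 sample left out) and Umod, uromodulin, by 0.28 (adjusted p 0.043, lost in 6 of 8). The aquaporin Aqp2 ran from 128 to 155 TPM at dawn and from 82.9 to 169 at dusk and did not pass (adjusted p 0.226).

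Of 20 sodium and potassium transport genes, 6 were higher at dawn (11.6% over all genes) and 1 at dusk (5.73%). Kcnj1, the ROMK potassium channel, ran from 65.4 to 76.2 TPM at dawn and from 46.2 to 53.1 at dusk (0.51 log2 units, SE 0.06, adjusted p 0.0023). Hsd11b2, which keeps cortisol and corticosterone from the mineralocorticoid receptor, ran from 68.4 to 83.1 and from 52.6 to 62.8 (0.40, adjusted p 0.0103), and Bsnd, a chloride channel subunit, differed by 0.35 (adjusted p 0.0143). Slc9a3, the NHE3 exchanger of the proximal tubule, was the dusk-high member, with 13.7 to 18.1 TPM at dawn and 19.3 to 26.0 at dusk (-0.54, adjusted p 0.0169). Under median-of-ratios scaling 3 were higher at dawn and 1 at dusk, and 3 to 5 were higher at dawn with 1 sample left out (3 without ZT0 A or any sample of ZT20 or ZT8).

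Carriers of glucose, phosphate and organic ions split, with 4 of 24 higher at dawn and 6 at dusk (11.6% and 5.73% over all genes). Slc16a1, the MCT1 lactate and ketone carrier (chromosome 3, 104638668 to 104658462, plus strand), was at 14.6 and 15.3 TPM at ZT20, 18.7 and 16.4 at ZT0, 6.34 and 4.55 at ZT8, and 3.97 and 4.15 at ZT12 (1.77 log2 units, SE 0.15, adjusted p 0.000316). Slc2a1, GLUT1, differed by 0.49 (adjusted p 0.00606). The fructose carrier Slc2a5 was higher at dusk, at 37.3 to 53.6 TPM against 21.5 to 28.2 (-0.89, adjusted p 0.00384), as were the ergothioneine carrier Slc22a4 (-0.63, adjusted p 0.0038) and the GLUT2 gene Slc2a2 (-0.44, adjusted p 0.0309, lost in 4 of 8 fits with 1 sample left out). With 1 sample left out, 2 to 5 were higher at dusk, 2 without ZT0 A or B and 3 without ZT20 A, ZT8 A or ZT8 B.

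In the NAD and heme list, 5 of 17 genes were higher at dusk and 1 at dawn (5.73% and 11.6% over all genes). The dusk count was 3 without ZT0 B or ZT20 A, and the dawn count 2 without ZT8 A. Por, the electron donor of cytochromes P450, ran from 95.4 to 118 TPM at dawn and from 139 to 167 at dusk (-0.49 log2 units, adjusted p 0.00522). Naprt, which makes NAD from nicotinic acid, ran from 12.6 to 13.9 and from 16 to 19.7 (-0.39, adjusted p 0.0111), and Fech, the last enzyme of heme synthesis, differed by -0.25 (adjusted p 0.0125). Hmox1, which breaks heme down, was higher at dawn, at 25.4 to 39.3 TPM against 13.2 to 19.99 (0.87, adjusted p 0.00971). Nampt, a clock-linked gene of NAD salvage, did not pass (-0.24, adjusted p 0.115).

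Markers of kidney cell types checked what the samples held. The summed proximal tubule markers were at 2079 to 2351 TPM at dawn and 2154 to 2387 at dusk, and markers of the thick ascending limb, distal tubule, collecting duct and podocytes were present in all 8 samples. Stroma markers summed to 50.4 to 64.9 TPM at dawn and 36.7 to 42.5 at dusk, with Col1a1 (0.70 log2 units, adjusted p 0.00521) and Col3a1 (0.75, adjusted p 0.00274) higher at dawn. Podocyte markers summed to 64.3 to 70.9 and 50.1 to 61.4, and intercalated cell markers to 57.3 to 61.9 and 44.2 to 54.7. Of 3 podocyte markers 0 passed, and of 4 intercalated cell markers 1 did. Thick ascending limb markers summed to 1483 to 1737 and 1193 to 1489, which overlapped. In these bulk samples fewer cells of a type and less RNA per cell cannot be told apart. Their part in the changes of matrix and collecting duct genes such as Npnt, P4ha1 and Avpr2 was not tested. Erythroid markers (1401 to 2090 TPM at dawn, 826 to 1548 at dusk) overlapped, as did leukocyte markers (132 to 193 and 140 to 251).

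The same comparison in KO kidneys gave 24 genes of 12916 tested (0.186%), 14 higher at dawn and 10 at dusk, and 1383 at an unadjusted p under 0.05. The median SE was 0.116 log2 units in KO and 0.0924 in WT, so fewer calls alone do not show smaller changes. Of the 24, 17 were also called in WT and 22 had the same sign there. They included Txnip (-1.68), Calr (0.75), Pdia6 (0.62), Srebf1 (1.22) and the tubulins Tuba4a (0.83) and Tubb4b (0.79). Among genes higher at dawn in WT, 1154 of the 1470 tested in KO (78.5%) had the same sign in KO, with a median of 0.11 log2 units against 0.35 in WT. Among those higher at dusk it was 589 of 716 (82.3%), with -0.16 against -0.43, while 63.3% of all genes tested in both shared a sign. These sets were chosen on the WT values, which favours a larger value there.

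The difference between the genotypes was tested directly over 16 samples. It passed for 41 of 12873 genes (0.318%), and for 1526 at an unadjusted p under 0.05. In 37 of the 40 with a value in both genotypes the absolute change was smaller in KO, and 39 of the 41 were called in WT. The difference was positive for 31.7% of the 41 as deposited and for 44.4% of the 63 called under median-of-ratios scaling. The clock lists gave 10 of these genes. Nfil3, 4.04 in WT, changed by -0.37 in KO (difference -4.41, SE 0.25, adjusted p 2.08e-07), with 8.42 to 11.9 TPM in the KO dawn samples and 10.4 to 19.97 in the KO dusk samples. Arntl differed by -4.33 (adjusted p 4.61e-07) and Dbp, at 2.46 to 4.20 TPM in all 8 KO samples, by 5.02 (adjusted p 1.17e-06).

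Outside the clock, the smallest p-values of this difference were those of Slc16a1, Ypel2, Leo1, Ndrg1 and Rhobtb1. Slc16a1 changed by 1.77 log2 units in WT and -0.16 in KO (difference -1.93, SE 0.19, adjusted p 0.00015). For Ypel2 it was 1.92 and -0.50, with KO values of 7.77 to 17.0 TPM at dawn and 12.8 to 17.4 at dusk (difference -2.42, adjusted p 0.000154). Leo1 changed by 1.32 in WT and 0.20 in KO (adjusted p 0.000212). Ndrg1, a stress-responsive gene at 937 to 1051 TPM at dawn and 289 to 546 at dusk in WT, changed by 1.37 and -0.22 (adjusted p 0.00125), and Rhobtb1, a protein with BTB domains, by 1.62 and 0.01 (adjusted p 0.00137).

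Other genes of the lists with a called difference were Avpr1a (adjusted p 0.0048), Por (0.0432), Myc (0.0432) and Pdk4. Pdk4 was the reverse case: it changed by 0.27 log2 units in WT and by -2.71 in KO (difference -2.98, SE 0.46, adjusted p 0.0109), with 3.22 to 6.67 TPM at dawn and 22 to 33.9 at dusk in KO. Dgat2, one of the dusk-high lipid genes, changed by -0.56 in WT and 0.17 in KO (adjusted p 0.00138). Castor1 changed by -1.15 and -0.18 (adjusted p 0.0432).

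No ER chaperone, sterol synthesis or heat shock gene had a called genotype difference, which does not show that the genotypes were alike. The list medians were 0.63 in WT and 0.55 in KO for ER chaperones, 0.48 and 0.46 for sterol synthesis, and 0.58 and 0.19 for heat shock, with 4, 0 and 0 members called between dawn and dusk in KO. The 4, all ER chaperones, were called in WT too. Hspa5 changed by 1.26 in WT and 0.76 in KO (difference adjusted p 0.457). Hsp90aa1 changed by 1.19 and 0.61 (0.269), and Cpt1a by -0.68 and -0.76 (0.907).

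**Figure D5:**
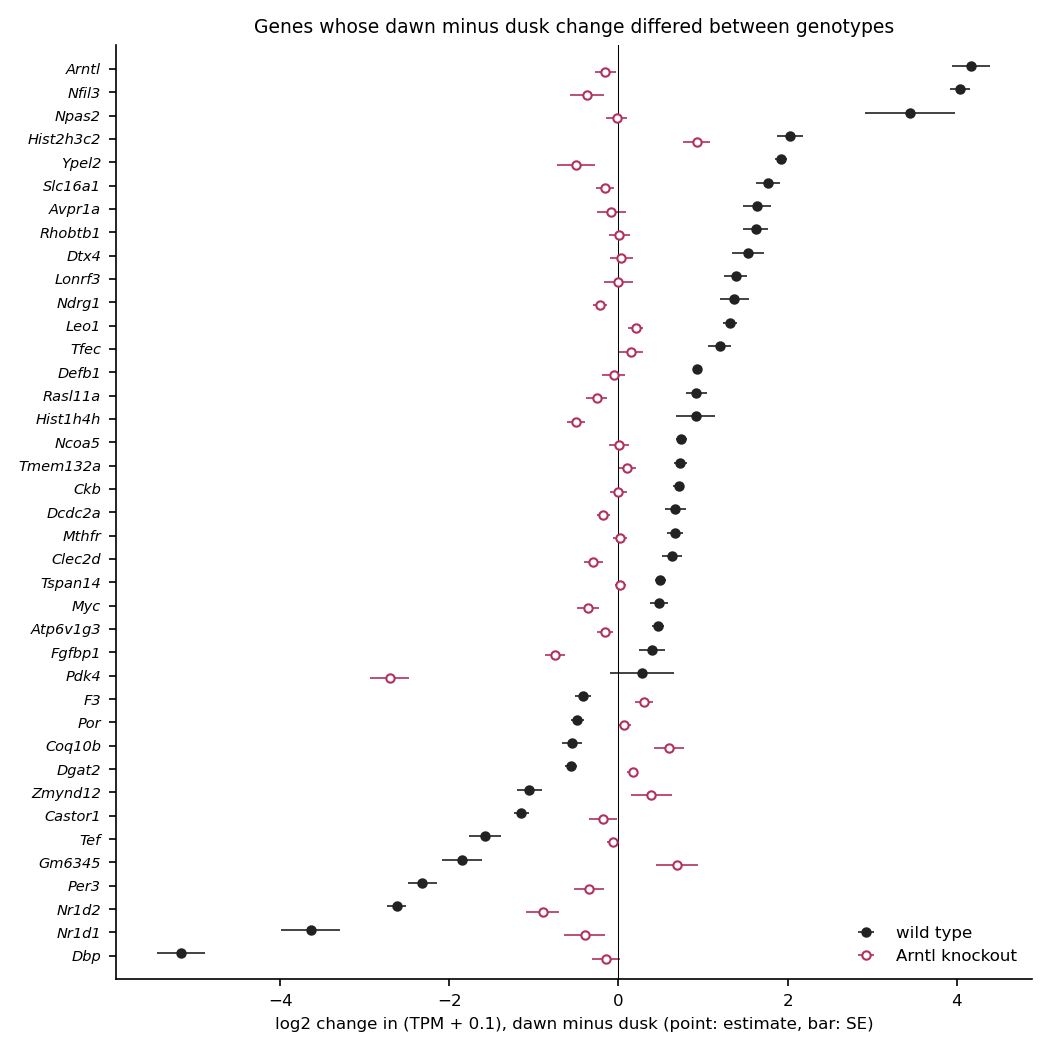
Dawn minus dusk log2 change in (TPM + 0.1) (x axis; bars are SE) in WT (filled) and in the Arntl knockout (open) for 39 of the 41 genes with a called genotype difference, ordered by the WT value. Ciart, which did not pass the filter in KO, and 1 other gene are not plotted; open points lie nearer 0 than filled ones for most genes, and Pdk4 (0.27 in WT, -2.71 in KO) is the largest exception.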

How the data were processed

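Polyadenylated kidney RNA of 24 samples was measured by RNA sequencing, and 8 WT and 8 KO samples entered the tests. The authors deposited transcript TPM values from kallisto 0.42.4 on mm10 (GRCm38), per the submitters' processing notes; the index and its annotation release are not given in the sources used here. Of 88198 transcripts, 86119 matched a GENCODE M21 gene and were summed per gene; the 2079 others held 1.37% to 1.82% of TPM in the 8 WT samples and were left out. Columns of the deposited table named SV129 were read as the WT samples of strain 129SV with the same time and letter. Column totals were 999999 to 1000000 TPM, so no read counts or depth could be used.

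Genes averaging 1 TPM or more in the samples of a fit were tested on log2(TPM + 0.1) with limma 3.58.1 (R 4.3.3; eBayes with trend and robust), two-sided, with Benjamini-Hochberg adjustment over all genes tested. Only the fit of WT dawn against dusk was tested on simulated data. The fits were WT dawn against dusk, its opposed pairs of times, KO dawn against dusk, and the genotype difference. Pseudocounts, filters, scaling, variance moderation, a replicate block, time means and leaving out each sample were varied.

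Members and lists were chosen with earlier results of these data known. Named genes were those of the clock lists; outside them the 10 smallest p-values per direction without overlap, the 5 largest changes per direction at a mean of at least 5 TPM, up to 4 genes per list and the 5 smallest p-values of the genotype difference. Other genes, among them list members that did not pass, Dgat2, Tuba4a and the marker genes, were picked with their values in view. The 20 4C-seq samples were not analysed here. Some genes that the rule names are not reported here.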

Additional observations from a re-analysis of the deposited data

Results flagged for a closer look

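The dawn minus dusk change differed between genotypes (limma, adjusted over all genes) for the 20 named genes that follow, given here as KO minus WT on the log2 scale. Among clock genes it was -4.41 for Nfil3, -4.33 for Arntl and -3.47 for Npas2, and 5.02 for Dbp, 3.56 for Ciart, 3.24 for Nr1d1, 1.97 for Per3, 1.73 for Nr1d2 and 1.51 for Tef. Outside the clock it was -2.42 for Ypel2, -1.93 for Slc16a1, -1.72 for Avpr1a, -1.61 for Rhobtb1, -1.59 for Ndrg1, -1.11 for Leo1, -1.10 for Hist2h3c2, -0.984 for Defb1 and -0.836 for Myc. It was positive for Castor1 (0.969) and Por (0.56).

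In 12 of 204 groups of 4 WT samples, 1 sample lay apart from the other 3, with a gap to its neighbour of more of the group's range than Dixon's 95% value allows. Chance flags about 1 in 20 groups. At dusk these were Tubb4b (0.895), Ciart (0.837), Pnpla2 (0.92), Slc3a2 (0.87), Vnn1 (0.845) and Per1 (0.881). At dawn they were Eif4b (0.875), Scd2 (0.92), Bsnd (0.967), Rora (0.88), Gm10974 (0.932) and Klf2 (0.836).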

How the results depend on the processing

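The 2202 genes called between dawn and dusk in WT became 1684 to 3149 under the other settings, and 1200 to 1791 with 1 sample left out (lowest without ZT0 A, then 1263 without ZT0 B). ZT0 against ZT12 (1200 genes) gave 496 with no filter and 673 under median-of-ratios scaling, and 36 to 693 with 1 sample left out, each of the 8 moving it by over 1.5 times. Where 1 sample of a time is left, it is assumed to vary like the other times. ZT20 against ZT8 (669) gave 177 with no filter and 314 without trend and robust moderation, and 29 to 636 with 1 sample left out; it moved without either sample of ZT0 (253 each), ZT8 (53 without A, 29 without B) or ZT20 (134 without A, 29 without B). In KO (24) the count was 11 without trend and robust moderation and 8 to 40 with 1 sample left out: 11 without ZT0 A, ZT0 B or ZT12 B, 15 without ZT8 A, 8 without ZT8 B or ZT20 A, and 40 without ZT20 B. The genotype difference (41) gave 63 under median-of-ratios scaling, 74 with 1 mean per time and 25 to 60 with 1 sample left out (25 without KO ZT20 A, 27 without KO ZT0 B or WT ZT0 A). Of the 92 named genes called, 78 kept their call in each of these 8 fits, and no call of a named gene changed sign under any setting run.

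The labels do not say that A and B mark shared sets. The A minus B deviations of 2 times correlated at 0.057 (ZT8 and ZT12) to 0.287 across genes, 5 of 6 pairs of times being over 0.1, so a shared set was not tested beyond this. With the replicate block the counts were 2042 (1915 of them shared), 915, 429, 19 and 34, in the order above. In the gene lists of WT, the block moved the dusk count of fatty acid oxidation genes and of cell cycle genes from 2 to 1 each, of insulin and FoxO genes from 3 to 2 and of ER chaperones from 0 to 1. It moved the dawn count of immediate early genes from 1 to 2, of heat shock genes from 11 to 10 and of glucose, phosphate and organic ion carriers from 4 to 3 (6 to 5 at dusk). Depth is unknown, so counting error could not be separated from other spread.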

Other observations

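These gene families were chosen after their values were seen. Tubulins, the subunits of microtubules, were higher at dawn in 9 of 10 tested genes and at dusk in 0 (11.6% and 5.73% over all genes). Their median log2 change was 0.70, against 0.45 in the knockout, where 4 were called. Their summed level was 491 to 557 TPM in the dawn samples and 305 to 322 in the dusk samples, without overlap. Close copies among the tubulins share reads, so the division between them is uncertain. Nuclear genes for complex I of the respiratory chain were higher at dawn in 20 of 36 and at dusk in 0 (median 0.17), and in 4 under median-of-ratios scaling. With 1 sample left out that count ran from 9 (without ZT0 A; 13 without ZT0 B or ZT8 A) to 25. Cytosolic ribosomal protein genes gave 18 of 78 higher at dawn (median 0.11) and 7 under that scaling. Under it 1175 of all 12723 genes tested were higher at dawn, and the complex I and ribosomal counts were near that share. With 1 sample left out the ribosomal count ran from 5 (without ZT0 B) to 17. It fell by over 1.5 times without any of ZT0 A or B, ZT12 B, ZT20 B and ZT8 A or B.

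The 13 protein-coding genes of the mitochondrial genome had a median of -0.10, with 1 called, mt-Cytb, higher at dusk (5.73% over all genes). The dusk count was 2 under median-of-ratios scaling, mt-Nd5 and mt-Nd6 in place of mt-Cytb. It was 3 under the 5 TPM filter, 3 with 1 mean per time and 5 with the 12 WT samples. It was 0 without trend and robust moderation, 5 without ZT20 replicate A, 2 without ZT8 replicate B and 0 in the other 6 fits that left 1 sample out.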
